A study of Homo sapiens with 8 samples.

Results

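The comparison described here set VCaP cells against C4-2B cells, a pair of human prostate cancer lines that are both driven by the androgen receptor. It used 4 of the 8 arrays of a study of DNA-dependent protein kinase (DNA-PK): the arrays of VCaP and C4-2B after a non-targeting control siRNA and after an siRNA against DNAPK. The other 4 arrays held the same treatments of DU145 and PC3, which served for scale. Every culture was harvested 48 hours after transfection, and 400 ng of total RNA was labelled for an Affymetrix whole-transcript array. The members were chosen by the labelled line, and each VCaP array was paired with the C4-2B array of the same siRNA, which gave 2 pairs. Each line and siRNA had 1 array, so each group is a single culture of an established line and not a set of independent cultures. C4-2B and PC3 were grown in RPMI1640, and VCaP and DU145 in DMEM, so line and medium cannot be told apart in this comparison.

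C4-2B descends from LNCaP, a lymph node metastasis line, after passage in castrated mice and spread to bone. VCaP was established from a vertebral metastasis and carries the TMPRSS2-ERG fusion, which places ERG, an ETS family transcription factor, behind a promoter that answers to androgen. In prostate epithelium the androgen receptor enters the nucleus on binding its hormone and drives genes of secretion, such as the kallikreins KLK3 (prostate-specific antigen) and KLK2, together with the pioneer factor FOXA1 and the homeobox factor HOXB13.

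Values are deposited log2 signals after robust multi-array averaging (RMA), and a difference of 1 on this scale is 2-fold. Every difference is VCaP minus C4-2B, so a positive number means more signal in VCaP. The spread came from a limma fit to all 8 arrays with terms for line and siRNA. A gene was called where the Benjamini-Hochberg adjusted p was under 0.05 and both pairs had the same sign. RMA makes the distributions of the arrays alike, so a difference is relative to the bulk of transcripts. In RNA from a culture, fewer cells that express a gene and less RNA per cell cannot be told apart.

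The lines differed widely and in the same way in both pairs. Of 16796 genes tested, 2806 (16.7%) were called higher in VCaP and 3028 (18.0%) higher in C4-2B. Past 2-fold in both pairs were 1109 genes (6.60%) higher in VCaP and 1054 (6.28%) higher in C4-2B, and 2161 of these 2163 were also called. Large differences leaned to VCaP: of 264 called genes past 3 on the log2 scale (8-fold), 182 were higher in VCaP and 82 higher in C4-2B. The median difference of all genes was -0.03. Across genes the 2 arrays of a line correlated at 0.990 in C4-2B and 0.974 in VCaP, against 0.880 to 0.892 between the lines. In 76.05% of genes the pairs agreed in sign. The siRNA arrays lay farther apart in VCaP than in C4-2B: the standard deviation over genes of DNAPK siRNA minus control was 0.46 in VCaP and 0.29 in C4-2B. Leaving out either C4-2B array lowered the calls to 1529 or 1566 higher in VCaP and 1596 or 1527 higher in C4-2B. In those fits the lone C4-2B array was assumed to vary like the other arrays.

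**Figure D1:**
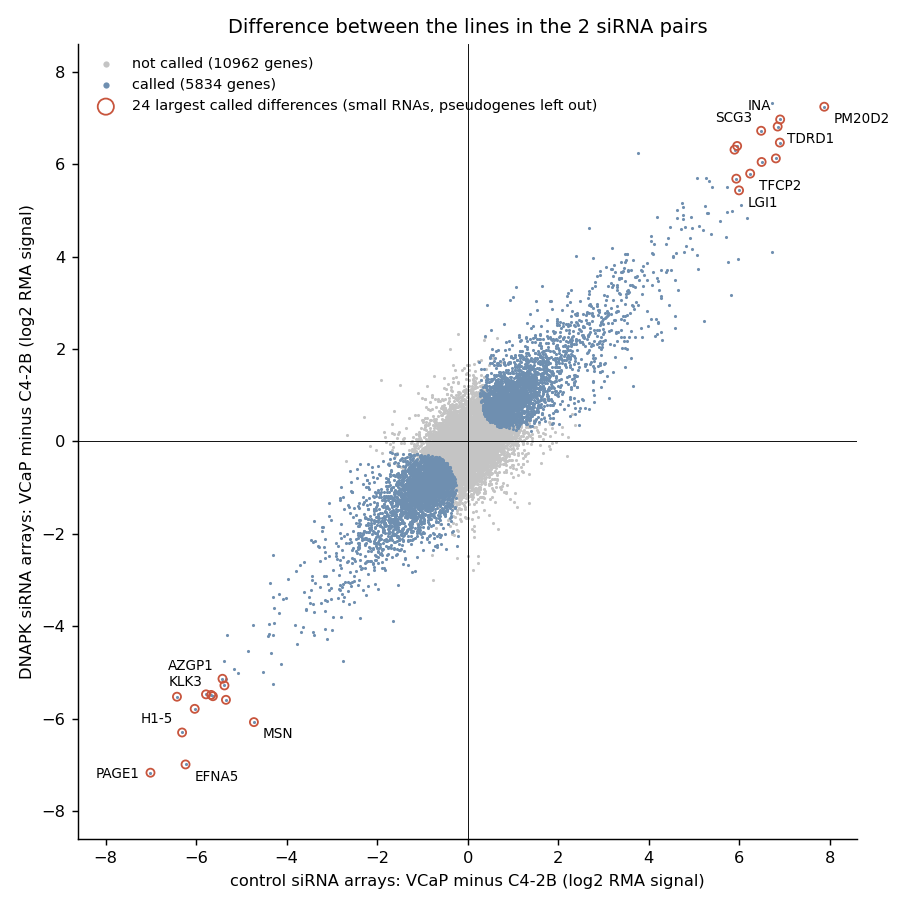
Each point is 1 of 16796 genes, placed by VCaP minus C4-2B (log2 RMA signal) on the control siRNA arrays (horizontal) and on the DNAPK siRNA arrays (vertical). The 5834 called genes are blue, and rings mark the 12 largest called differences in each direction, small RNAs and pseudogenes left out; PM20D2 lies at the far upper right and PAGE1 at the far lower left.

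The largest differences ran to over 100-fold, and most of these genes read under 4 on average in one line; the exceptions were HSPB1, BNIP3L and KLK3, with VCaP means of 4.60, 4.32 and 4.60. PAGE1, a cancer-testis antigen gene of the X chromosome, read 10.24 and 10.55 on the C4-2B arrays (control, then DNAPK siRNA) and 3.23 and 3.38 on the VCaP arrays, a difference of -7.09 (SE 0.18; limma adjusted p = 1.62e-06). PM20D2, a peptidase gene, read 2.24 and 2.39 in C4-2B and 10.11 and 9.63 in VCaP, a difference of 7.56 (SE 0.26; limma adjusted p = 4.25e-06). In both genes the 2 groups were far apart, and PM20D2 was high in DU145 and PC3 as well (6.64 to 8.98). The other genes leading in VCaP included INA (alpha-internexin, a neuronal filament; 6.93), SPTBN1 (beta-spectrin of the membrane skeleton; 6.68), SCG3 (secretogranin III of secretory granules; 6.60), the long-chain acyl-CoA synthetase gene ACSL5 (6.47), ITM2A (6.27), CWH43 (6.17), SSX3 (6.10), TFCP2 (6.02), SLC38A11 (5.81) and LGI1 (5.71). Those leading in C4-2B included the ephrin ligand gene EFNA5 (-6.61), the linker histone gene H1-5 (-6.30), the neural adhesion gene NCAM2 (-5.97), the small heat shock protein gene HSPB1 (-5.91), TCEAL9 (-5.63), the mitophagy receptor gene BNIP3L (-5.57), PLXDC2 (-5.47), the membrane-actin linker gene MSN (moesin; -5.40), TENM1 (-5.33) and AZGP1 (-5.28). PAGE1, SSX3 and H1-5 have near-identical copies, so part of their signal may come from relatives.

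Kallikreins and other androgen-regulated genes did not move as one group. KLK3 read 10.12 and 10.24 in C4-2B and 4.46 and 4.75 in VCaP, a difference of -5.58 (SE 0.28; 47.7-fold; limma adjusted p = 1.55e-05). VCaP, a line generally described as secreting prostate-specific antigen, lay closer for this gene to DU145 (3.84 and 2.94) and PC3 (3.68 and 3.43) than to C4-2B. KLK2, the neighbouring kallikrein, read 10.70 and 10.31 in C4-2B and 11.37 and 11.56 in VCaP, so all 4 arrays were high and the VCaP pair was the higher (0.96, SE 0.25; limma adjusted p = 0.0203). Its call was lost without the VCaP DNAPK siRNA array (0.83), without the C4-2B DNAPK siRNA array (0.70) and with control arrays alone (0.67). KLK4, which read 8.71 and 8.72 in C4-2B, read 7.54 and 7.27 in VCaP, a difference of -1.31 (SE 0.16; limma adjusted p = 7.43e-04). KLK15 (-2.0) and the pseudogene KLKP1 (-1.59) were also higher in C4-2B. In all, 1 of 12 kallikrein genes tested (8.33%), KLK2, was called higher in VCaP and 5 (41.7%) higher in C4-2B, beside 16.7% and 18.0% of all genes.

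The promoter windows of KLK3 and KLK2 are shown because these neighbours, which share most of the sequence just upstream, had opposite differences. Each window runs from 250 bases before the RefSeq start to 50 after it on GRCh38.p14, plus strand, at chr19:50854665-50854964 for KLK3 and chr19:50873189-50873488 for KLK2. Capitals mark 15 aligned bases that begin 170 bases before the KLK3 start and 176 bases before the KLK2 start.
KLK3: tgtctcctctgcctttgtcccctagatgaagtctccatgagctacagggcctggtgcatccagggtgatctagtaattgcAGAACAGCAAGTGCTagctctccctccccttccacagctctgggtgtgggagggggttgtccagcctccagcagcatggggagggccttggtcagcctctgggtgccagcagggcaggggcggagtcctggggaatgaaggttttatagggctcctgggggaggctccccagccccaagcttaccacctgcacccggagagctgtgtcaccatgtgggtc
KLK2: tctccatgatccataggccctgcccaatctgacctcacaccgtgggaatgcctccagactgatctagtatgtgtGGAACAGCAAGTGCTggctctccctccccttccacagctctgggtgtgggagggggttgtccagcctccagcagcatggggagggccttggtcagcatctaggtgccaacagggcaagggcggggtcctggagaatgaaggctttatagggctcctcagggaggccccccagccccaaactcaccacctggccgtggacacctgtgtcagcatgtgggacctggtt
Over 291 aligned bases the windows were 84.2% identical. The capitals differ by A1G, counted from the first capital with the KLK3 base first. That base lies in AGAACA, a form of the half-site of the androgen response element. KLK3 holds these exact letters here, and KLK2 has GGAACA in their place. Only the exact letters were searched, so their absence does not mean that KLK2 lacks the element. Searched on both strands, AGAACA occurs in 14.8% of 35116 RefSeq promoter windows of this length. The letters describe the reference genome and say nothing of receptor binding in either line.

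Outside the kallikreins, 43 androgen-regulated genes were tested, with a median of -0.29. Of these, 11 (25.6%) were called higher in VCaP and 15 (34.9%) higher in C4-2B, beside 16.7% and 18.0% of all genes. AZGP1, the zinc-alpha-2-glycoprotein gene of prostate secretion, read 7.96 and 7.65 in C4-2B and 2.54 and 2.51 in VCaP (-5.28, SE 0.17; limma adjusted p = 3.32e-06). GNMT, a glycine methyltransferase gene, read 7.26 and 6.88 in C4-2B and 3.47 and 4.06 in VCaP (-3.30, SE 0.26), and EAF2 of the elongation machinery had a difference of -2.40. The solute carrier gene SLC45A3 (prostein) was lower in VCaP by 1.49. In the opposite direction stood ACP3, prostatic acid phosphatase, with 5.54 and 5.15 in C4-2B and 10.17 and 9.98 in VCaP (4.73, SE 0.30; limma adjusted p = 4.10e-05). TMEFF2, a transmembrane protein gene of prostate and brain, read 3.68 and 4.71 in C4-2B and 7.97 and 6.90 in VCaP (3.24, SE 0.41). The opioid receptor gene OPRK1 (3.22) and HPGD, which inactivates prostaglandins (3.07), were higher in VCaP too. TMPRSS2, the serine protease gene whose promoter drives the fusion, read 9.56 and 9.46 in C4-2B and 9.03 and 8.68 in VCaP and was not called (-0.65, 95% interval -1.45 to 0.14; -0.53 on control arrays alone -1.09 without the VCaP control array, -0.38 without the C4-2B control array and -0.22 without the VCaP DNAPK siRNA array). The list thus held wide differences in either direction beside TMPRSS2, which was high on all 4 arrays. The count higher in VCaP was 5 without the C4-2B control array and 7 without the C4-2B DNAPK siRNA array, without the VCaP control array or with control arrays alone.

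**Figure D2:**
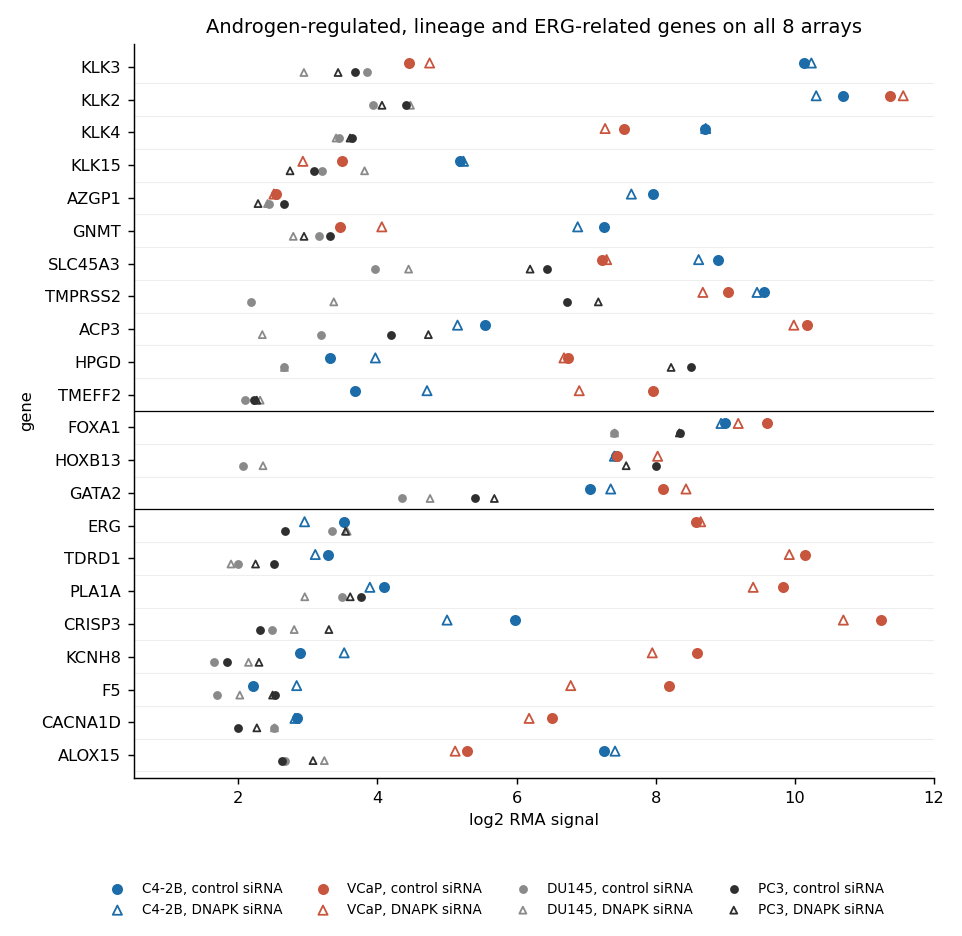
Log2 RMA signal of 22 genes on all 8 arrays; filled circles are control siRNA, open triangles DNAPK siRNA, and colour gives the line. The upper block holds androgen-regulated genes, the middle block lineage factors and the lower block ERG with genes reported in ERG-fusion tumours; AZGP1 in VCaP lies with DU145 and PC3, KLK3 in VCaP lies above them and far below C4-2B, and ERG is high on the VCaP arrays alone.

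Of the main lineage transcription factors FOXA1 and HOXB13 were not called, and GATA2 was. FOXA1 read 8.99 and 8.94 in C4-2B and 9.59 and 9.19 in VCaP and was not called (0.43, 95% interval 0.02 to 0.83). HOXB13 read 7.43 and 7.41 in C4-2B and 7.45 and 8.03 in VCaP and was not called either (0.32, 95% interval -0.25 to 0.88). GATA2, a zinc finger factor that acts with the androgen receptor, read 7.05 and 7.35 in C4-2B and 8.11 and 8.43 in VCaP, higher in VCaP by 1.07 (SE 0.15; limma adjusted p = 0.00151). Of 21 lineage factors tested, 4 were called higher in VCaP and 4 higher in C4-2B, shares of 19% each beside 16.7% and 18.0% of all genes. NFIB (2.25) and SOX9 (1.68), a developmental factor of prostate buds, led in VCaP, and ELF5 (-1.76), an ETS factor of secretory epithelium, in C4-2B. Without the C4-2B control array 1 factor was called higher in C4-2B. Without the VCaP control array the FOXA1 difference was 0.23. The HOXB13 difference was 0.64 without that array, and it was 0.00 without the VCaP DNAPK siRNA array.

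Nuclear receptors and steroid enzymes differed one by one. The progesterone receptor gene PGR read 1.91 and 1.93 in C4-2B and 5.37 and 4.56 in VCaP (3.04, SE 0.25; limma adjusted p = 1.40e-04). The retinoid receptor genes RXRB (1.42) and RARB (-2.16) were called in opposite directions. NR3C1, the glucocorticoid receptor gene, read 3.41 and 4.08 in C4-2B and 5.86 and 4.45 in VCaP; its call (1.41; limma adjusted p = 0.0337) was lost without the VCaP control array (0.69), without the C4-2B control array (0.73) and with no siRNA block, while the difference was 2.13 without the VCaP DNAPK siRNA array and 2.46 with control arrays alone. Of 15 receptors tested, 4 were called higher in VCaP and 5 higher in C4-2B, counts that became 2 and 3 without the C4-2B control array, 4 and 2 without the C4-2B DNAPK siRNA array, and 4 and 3 without the VCaP control array. Among 15 enzymes of androgen synthesis and inactivation, 4 were higher in VCaP and 6 higher in C4-2B; without single arrays the counts were 3 to 5 and 4 to 5. The dehydrogenase gene HSD17B11 read 6.56 and 6.23 in C4-2B and 9.87 and 9.15 in VCaP (3.11, SE 0.25, limma adjusted p = 1.32e-04). CYP11A1 (-2.32, and -1.54 on control arrays alone), HSD17B1 (-2.19) and HSD17B10 (-1.90) were higher in C4-2B. AKR1C3 was called higher in VCaP (1.49). Its call was lost without the VCaP control array (1.18) and without the C4-2B control array (1.13). The glucuronosyltransferase genes UGT2B15 and UGT2B17, near-identical enzymes that inactivate androgens, had means below the filter on low signals and were not tested. UGT2B15 read 1.36 and 1.37 in C4-2B and 5.66 and 4.19 in VCaP, and UGT2B17 1.18 and 1.98 in C4-2B and 5.50 and 3.09 in VCaP. Both had more signal on the VCaP arrays, and with the filter removed both were called (limma adjusted p = 3.31e-04 for UGT2B15 and 0.0188 for UGT2B17). Of 28 coregulators of the androgen receptor, 5 were called in each direction (17.9% each), close to the shares of all genes; TLE1, a corepressor, was the lowest (-1.76) and NCOA2, a coactivator of nuclear receptors, the highest (1.25). Those counts became 2 and 2 without the C4-2B control array, 3 and 2 without the C4-2B DNAPK siRNA array and 4 and 3 without the VCaP DNAPK siRNA array.

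ERG and the genes reported with its fusion in prostate tumours had the largest share higher in VCaP of the 32 lists plotted by their calls. ERG read 3.52 and 2.95 in C4-2B, 8.57 and 8.65 in VCaP and 2.68 to 3.56 in DU145 and PC3, a difference between the lines of 5.37 (SE 0.30; 41.5-fold; limma adjusted p = 2.56e-05). Of 21 tested genes on the list of ERG-fusion tumours, 16 (76.2%) were called higher in VCaP and 2 (9.52%) higher in C4-2B, and the median was 2.30. The highest was TDRD1, a germline tudor-domain gene, which read 3.29 and 3.11 in C4-2B and 10.14 and 9.92 in VCaP (6.83, SE 0.15; 114-fold; limma adjusted p = 1.62e-06). PLA1A, a phospholipase gene, read 4.10 and 3.89 in C4-2B and 9.82 and 9.40 in VCaP (5.62, SE 0.17). CRISP3, a secreted cysteine-rich protein gene, read 5.98 and 5.0 in C4-2B and 11.24 and 10.70 in VCaP (5.48, SE 0.42). All 3 were separated by at least 4 on the log2 scale on every array. The potassium channel gene KCNH8 (5.07), coagulation factor F5 (4.96), the calcium channel gene CACNA1D (3.51) and LEF1, a nuclear partner of beta-catenin (3.29), were also higher in VCaP. ALOX15, a lipoxygenase gene, ran the other way with 7.25 and 7.42 in C4-2B and 5.29 and 5.12 in VCaP (-2.13). PEX10 was called higher in C4-2B (-0.92), a call lost without either control array (-0.55 without that of VCaP). The list came from tumours in general, and VCaP is a standard model of that fusion; between 14 and 17 of its genes were called higher in VCaP without single arrays.

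The promoter window of TDRD1 is shown as that of the list's largest difference. It lies at chr10:114179037-114179336 on GRCh38.p14, plus strand, and capitals mark AGAACA, 147 bases before the start, and TTCCGG, 86 bases before it, the reverse complement of the ETS core CCGGAA.
TDRD1: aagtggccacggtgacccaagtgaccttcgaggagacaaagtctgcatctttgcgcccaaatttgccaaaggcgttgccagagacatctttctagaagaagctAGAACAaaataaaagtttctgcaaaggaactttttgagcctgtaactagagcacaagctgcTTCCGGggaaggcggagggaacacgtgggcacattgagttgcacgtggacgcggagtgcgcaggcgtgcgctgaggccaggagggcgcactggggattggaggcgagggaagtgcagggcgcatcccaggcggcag
The ETS core occurs on either strand in 17.2% of the 35116 promoter windows and the half-site in 14.8%. These matches are descriptions of letters, not of binding.

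Genes that lie between ERG and TMPRSS2 on chromosome 21, the stretch that some fusions delete, leaned to VCaP. Of 15 tested, 8 (53.3%) were called higher in VCaP and 1 higher in C4-2B, with a median of 0.88. The secretase gene BACE2 read 3.14 and 3.86 in C4-2B and 5.89 and 5.96 in VCaP (2.42, SE 0.28), FAM3B had a difference of 2.29, and the nucleosome-binding gene HMGN1, a ubiquitous chromatin protein, read 5.46 and 5.80 in C4-2B and 6.76 and 7.30 in VCaP (1.40). PSMG1, a proteasome chaperone gene, was the exception (-0.56), and its call was lost without either C4-2B array (-0.66 and -0.45) or the VCaP DNAPK siRNA array (-0.46). ETS2, inside the interval, was called (0.92), but not without the VCaP control array (0.60) or the C4-2B control array (0.62). The whole of chromosome 21 leaned the same way, with 75 of 195 genes (38.5%) called higher in VCaP and 15 higher in C4-2B and a median of 0.38. Without the C4-2B control array 5 genes of the interval were called higher in VCaP. Among 24 ETS factors, ERG aside, the called members were GABPA (1.04), ETS2 and ETV5 (0.68) in VCaP and ELF4 (-2.01), ELF5 and ELK4 (-0.65) in C4-2B. Without single arrays 2 to 4 ETS factors, ERG included, were called in each direction, and ETV5 lost its call without any of the 4 arrays (0.51 to 0.85). ELK4 lost its call without the C4-2B control array (-0.42) or either VCaP array (-0.67 and -0.63). ETV1 read near the floor on all 4 arrays (2.06 to 2.25).

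Neuroendocrine and neuronal genes were also often higher in VCaP: 11 of 23 tested (47.8%) were called, against 2 higher in C4-2B. SCG3 read 1.37 and 1.32 in C4-2B and 7.85 and 8.04 in VCaP (6.60, SE 0.16; 97.1-fold; limma adjusted p = 1.62e-06). SNAP25, of the vesicle fusion machinery, read 3.22 and 3.33 in C4-2B and 6.23 and 6.50 in VCaP (3.08, SE 0.20). The granins CHGA (3.04 and 2.85 in C4-2B, 5.44 and 4.26 in VCaP; 1.91) and CHGB (2.78 and 2.82 in C4-2B, 5.65 and 4.45 in VCaP; 2.25) and synaptophysin SYP (1.68) were higher in VCaP at lower signals. REST, the repressor of neuronal genes, read 7.35 and 7.44 in C4-2B and 6.83 and 6.73 in VCaP, lower in VCaP by 0.61 (SE 0.15; limma adjusted p = 0.0178), and the Notch ligand gene DLL3 was lower by 0.65. The median of the list was 0.36, so many members moved little, among them NKX2-1 (0.23) and ENO2 (0.36), neither called. CHGB was 1.45 without the VCaP control array. The count of 11 was 8 without the C4-2B control array and 12 without the VCaP control array, and the 2 calls of REST (-0.54 to -0.69 without single arrays) and DLL3 (-0.53 to -0.78) were lost without either C4-2B array or the VCaP DNAPK siRNA array.

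**Figure D3:**
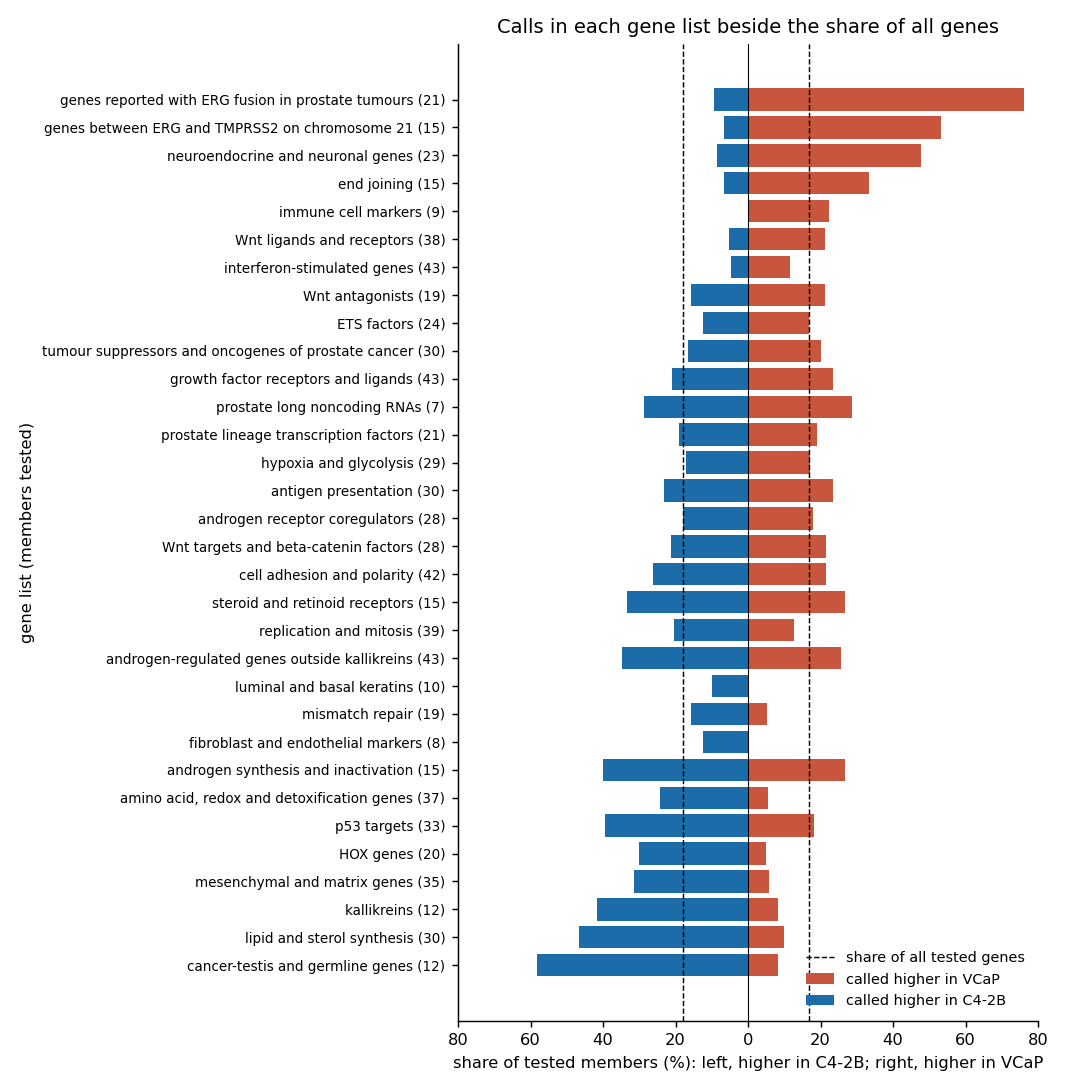
Share of tested members (horizontal, %) called higher in VCaP (red, right) and higher in C4-2B (blue, left) in 32 gene lists, with the number tested in brackets; dashed lines mark the shares of all 16796 genes, 16.7% and 18.0%. ERG-fusion genes lie farthest to the right (76.2%) and cancer-testis genes farthest to the left (58.3%).

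Most listed cancer-testis and germline genes that were called were higher in C4-2B. Of 12 tested, 7 (58.3%) were called higher in C4-2B, and the single listed gene called higher in VCaP was TDRD1. SSX3, a cancer-testis gene of the X chromosome outside the list, was higher in VCaP as well, with 1.23 and 0.93 in C4-2B and 7.12 and 7.24 in VCaP (6.10, SE 0.21). After PAGE1 came PRAME, a nuclear antigen gene, with 6.40 and 6.39 in C4-2B and 2.95 and 3.17 in VCaP (-3.34, SE 0.16; limma adjusted p = 1.30e-05), and MAGEA1 with 6.18 and 6.12 in C4-2B and 3.57 and 3.05 in VCaP (-2.84, SE 0.23). The list's median was -1.70, and 13 members fell below the filter. Probes for the MAGE and PAGE genes can pick up relatives of nearly the same sequence.

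Genes of lipid and sterol synthesis were higher in C4-2B in 14 of 30 cases (46.7%) and higher in VCaP in 3 (10%), with a median of -0.53. The desaturase gene FADS2 read 7.0 and 6.94 in C4-2B and 3.69 and 4.68 in VCaP (-2.79, SE 0.26; limma adjusted p = 2.49e-04). The fatty acid elongases differed in direction, with ELOVL7 (-2.22) and ELOVL5 (-2.01) higher in C4-2B and ELOVL6 (1.68) higher in VCaP. SREBF1, the transcription factor of lipid synthesis, read 7.45 and 7.45 in C4-2B and 5.31 and 5.78 in VCaP (-1.90, SE 0.17; limma adjusted p = 2.05e-04). ACLY, which makes cytosolic acetyl-CoA (-1.81), and INSIG1 (-1.83) were also higher in C4-2B. A link between SREBF1 and these genes was not tested. The VCaP arrays themselves were apart for INSIG1 (8.32 with control, 9.42 with DNAPK siRNA) and ACLY (8.06 and 9.0). Between 11 and 17 members were called higher in C4-2B without single arrays.

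Among 33 targets of p53, the stress-activated tumour suppressor, 13 (39.4%) were called higher in C4-2B and 6 (18.2%) higher in VCaP. GDF15, a secreted stress cytokine gene, read 10.07 and 10.06 in C4-2B and 7.30 and 5.32 in VCaP (-3.75, SE 0.71; limma adjusted p = 0.00557), and was at -2.32 without the VCaP DNAPK siRNA array. The death receptor gene TNFRSF10B (-1.72) and the mitochondrial quality gene SPATA18 (-1.71) were higher in C4-2B, while the death receptor gene FAS read 4.27 and 4.28 in C4-2B and 8.54 and 7.44 in VCaP (3.71, SE 0.29; limma adjusted p = 1.16e-04). CDKN1A, the p21 cell cycle inhibitor, was lower in VCaP by 0.60 (limma adjusted p = 0.0203), a call lost without either C4-2B array (-0.60 each) or the VCaP DNAPK siRNA array (-0.51). The 13 calls became 5 without the C4-2B control array, 4 without the C4-2B DNAPK siRNA array, 8 without the VCaP DNAPK siRNA array and 5 with control arrays alone. The 6 calls higher in VCaP became 4 without the C4-2B control array, the C4-2B DNAPK siRNA array or the VCaP control array.

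Redox and detoxification genes held some of the widest single differences. ALDH1A1, a retinaldehyde dehydrogenase gene, read 1.73 and 1.65 in C4-2B and 7.12 and 7.16 in VCaP (5.45, SE 0.16; 43.7-fold; limma adjusted p = 2.62e-06). NQO1, a quinone reductase gene under NRF2, read 8.42 and 7.94 in C4-2B and 4.15 and 4.32 in VCaP (-3.94, SE 0.19), with 8.44 to 11.27 in DU145 and PC3. SLC7A5, a large neutral amino acid transporter gene, had a difference of -3.54 and HMOX1, haem oxygenase, of -2.17. Of 37 members, 2 were called higher in VCaP and 9 (24.3%) higher in C4-2B; the 9 became 13 without the VCaP control array, and the 2 higher in VCaP became 4 without the VCaP DNAPK siRNA array and 1 without either C4-2B array. Of 29 genes of hypoxia and glycolysis, 5 were called in each direction (17.2%), with EPAS1, the HIF-2 alpha gene, highest in VCaP (2.12). These counts rested on single arrays: higher in C4-2B were 15 without the VCaP DNAPK siRNA array and 1 without the C4-2B control array, 2 without the C4-2B DNAPK siRNA array and 3 without the VCaP control array, and higher in VCaP were 1 to 5. With control arrays alone 2 were higher in VCaP and 13 higher in C4-2B.

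Mesenchymal and matrix genes were higher in C4-2B in 11 of 35 cases (31.4%) and higher in VCaP in 2. Fibronectin, FN1, read 9.09 and 8.24 in C4-2B and 3.93 and 3.31 in VCaP (-5.05, SE 0.16; 33.0-fold; limma adjusted p = 3.32e-06). SNAI2, a repressor of epithelial genes, read 7.41 and 7.13 in C4-2B and 4.01 and 2.93 in VCaP (-3.80, SE 0.34), the matrix protease gene MMP16 had a difference of -2.76, and the filament gene VIM read 4.29 and 3.95 in C4-2B and 2.22 and 2.47 in VCaP (-1.78, SE 0.22). The opposite pair were the matrix genes and receptors TNC (3.18 and 2.87 in C4-2B, 7.34 and 5.52 in VCaP; 3.41) and CD44 (1.34). E-cadherin, CDH1, was high on all 4 arrays (10.38 and 10.46 in C4-2B, 10 and 10.11 in VCaP) and not called (-0.36). VIM stood at 7.22 to 8.19 in DU145 and PC3, so both androgen-driven lines were low on that scale.

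Of 42 adhesion genes, 9 (21.4%) were called higher in VCaP and 11 (26.2%) higher in C4-2B, beside 16.7% and 18.0% of all genes. The tight junction gene CLDN8 read 3.46 and 3.35 in C4-2B and 7.99 and 7.36 in VCaP (4.27, SE 0.20), and the plakophilin gene PKP1 (3.20) and the laminin receptor gene ITGA6 (2.27) were higher in VCaP. ALCAM read 7.63 and 7.73 in C4-2B and 4.16 and 4.23 in VCaP (-3.49, SE 0.17; limma adjusted p = 1.30e-05), and the fibronectin receptor gene ITGA5 was lower in VCaP by 1.40. The counts fell to 5 and 8 without the C4-2B control array and to 5 and 5 without the C4-2B DNAPK siRNA array. Of 10 keratins tested, KRT18 alone was called (-0.68), a call lost without either C4-2B array (-0.65 and -0.72). Of 20 HOX genes, 6 (30.0%) were called higher in C4-2B, led by HOXC13 with 5.02 and 4.61 in C4-2B and 3.09 and 2.80 in VCaP (-1.87, SE 0.24), and 1 higher in VCaP. Those 6 became 3 without the C4-2B control or the VCaP DNAPK siRNA array, 2 without the C4-2B DNAPK siRNA array and 1 with control arrays alone.

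The Wnt pathway, named in the study's title, works through secreted ligands, Frizzled and LRP receptors and, in its canonical arm, beta-catenin with TCF and LEF factors. Of 38 ligands and receptors, 8 (21.1%) were called higher in VCaP and 2 (5.26%) higher in C4-2B, beside 16.7% and 18.0% of all genes. The ligand gene WNT2 read 2.73 and 2.61 in C4-2B and 7.22 and 6.32 in VCaP (4.10, SE 0.23; 17.2-fold; limma adjusted p = 2.75e-05), with 2.31 to 2.57 in DU145 and PC3. The R-spondin receptor gene LGR4 read 6.20 and 6.39 in C4-2B and 8.30 and 8.89 in VCaP (2.30, SE 0.22), and the receptor gene FZD4 6.39 and 5.61 in C4-2B and 7.99 and 7.32 in VCaP (1.66, SE 0.19). FZD1 ran the other way (-1.36). WNT5A was not called (0.20). The 8 became 4 without either C4-2B array and with control arrays alone, and 5 without the VCaP DNAPK siRNA array.

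Antagonists, targets and factors of the pathway were called in both directions. SHISA3, which retains receptors inside the cell, read 3.97 and 3.98 in C4-2B and 6.47 and 6.37 in VCaP (2.44, SE 0.17; limma adjusted p = 6.29e-05). Of 19 antagonists, 4 (21.1%) were called higher in VCaP and 3 (15.8%) higher in C4-2B, beside 16.7% and 18.0% of all genes. Without the C4-2B control array 1 was called in each direction, and without either DNAPK siRNA array 3 and 1 were. LEF1 read 3.34 and 3.61 in C4-2B and 6.97 and 6.56 in VCaP (3.29, SE 0.23; limma adjusted p = 6.53e-05). The listed gene TCF4, whose symbol is not that of the LEF1 relative TCF7L2, read 5.96 and 5.80 in C4-2B and 3.05 and 3.31 in VCaP (-2.70, SE 0.18). TNIK, a kinase that binds TCF factors, was higher in VCaP (3.08), and the receptor gene TNFRSF19 read 8.06 and 7.97 in C4-2B and 2.99 and 2.96 in VCaP (-5.04, SE 0.15). Of 28 targets and factors, 6 were called in each direction (21.4%), and those higher in C4-2B were 3 without either C4-2B array or the VCaP control array. AXIN2, a feedback target of beta-catenin, read 4.50 to 4.81 on the 4 arrays and was not called (0.14).

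PRKDC, which encodes the catalytic subunit of DNA-PK and was the target of the siRNA, read 9.29 and 6.76 in C4-2B and 9.80 and 9.18 in VCaP. Its call (1.46, SE 0.41; limma adjusted p = 0.0284) joined a small difference on control arrays (0.51) with a larger one after siRNA (2.41), and it was lost without the VCaP DNAPK siRNA array (0.84), without the C4-2B DNAPK siRNA array (0.81) and with control arrays alone. Among 15 end joining genes, PRKDC included, 5 were called higher in VCaP and XRCC4 higher in C4-2B (-0.61). Without the C4-2B control array 1 of the 5 was left, and 2 were left without either DNAPK siRNA array. The nick repair scaffold gene XRCC1 (0.86) and APLF (1.33), which binds it, were among the 5, but both calls were lost without the C4-2B control array (0.70 and 1.10), and that of XRCC1 also without the VCaP control array (0.61). APLF stood at 0.85 without that array, and XRCC4 lost its call without either C4-2B array (-0.76 and -0.46) or the VCaP DNAPK siRNA array (-0.41). Of 19 mismatch repair genes, 1 was higher in VCaP and 3, all clamp loader subunits (RFC2, RFC3 and RFC4; -0.83 to -1.11), higher in C4-2B; MSH6 was not called (-0.21). Without either C4-2B array RFC4 alone of these 3 was called. The gene higher in VCaP was PMS1 (0.71), whose call was lost without either C4-2B array (0.61 and 0.82), without the VCaP control array (0.54) and with control arrays alone (0.93).

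Growth factor ligands and receptors differed in both directions. Of those tested, 23.3% were called higher in VCaP and 20.9% higher in C4-2B, beside 16.7% and 18.0% of all genes. HGF, the ligand of the MET receptor, read 1.59 and 1.98 in C4-2B and 5.68 and 6.04 in VCaP (4.08, SE 0.16). It read 1.75 to 2.02 in DU145 and PC3, so HGF passed the filter (2.51) only through its VCaP arrays. MET itself read 2.06 and 2.11 in C4-2B and 4.81 and 4.71 in VCaP (2.67, SE 0.15). DU145 and PC3 had more MET signal than either line (8.66 to 10.11). The receptor gene ERBB3 read 7.26 and 6.98 in C4-2B and 3.64 and 4.37 in VCaP (-3.12, SE 0.24), and IGF1 (-3.10) and IL6R (-3.05) were higher in C4-2B. Of 43 members, 10 were called higher in VCaP and 9 higher in C4-2B, and the 10 became 6 without the C4-2B control array.

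Interferon-stimulated genes were seldom called: 5 of 43 (11.6%) higher in VCaP and 2 (4.65%) higher in C4-2B, both below the shares of all genes. TLR3, a sensor of double-stranded RNA, read 3.20 and 3.13 in C4-2B and 6.40 and 7.32 in VCaP (3.69, SE 0.31; limma adjusted p = 1.49e-04), and the chemokine gene CXCL10 was higher in VCaP by 2.58. IFITM2, which blocks viral entry, read 7.55 and 7.69 in C4-2B and 3.17 and 3.53 in VCaP (-4.27, SE 0.24), and ISG15 had a difference of -2.26. MX1 was not called (0.18). Of 30 antigen presentation genes, 7 were called in each direction; MICA, a ligand of the natural killer receptor NKG2D, was lowest (-3.36 with its brightest probe set, -1.96 with the mean of its probe sets) and the peptide-trimming gene ERAP2 was higher in VCaP (1.64). The 7 higher in VCaP became 4 without the C4-2B control or the VCaP DNAPK siRNA array and 3 without the C4-2B DNAPK siRNA array.

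In replication and mitosis, 5 of 39 genes were called higher in VCaP and 8 higher in C4-2B, and the 8 became 2 without either C4-2B array and 3 without the VCaP DNAPK siRNA array. Those higher in VCaP were 3 and 1 without the C4-2B control and DNAPK siRNA arrays. TOP2A, a topoisomerase of mitosis, read 9.50 and 9.36 in C4-2B and 10.90 and 10.74 in VCaP (1.39, SE 0.19), and GINS2, part of the replicative helicase, 6.96 and 7.07 in C4-2B and 4.79 and 5.12 in VCaP (-2.06, SE 0.27). The shares of the replication and mitosis list were 12.8% higher in VCaP and 20.5% higher in C4-2B, beside 16.7% and 18.0% of all genes. Of 30 tumour suppressors and oncogenes of prostate cancer, 6 (20%) were called higher in VCaP and 5 (16.7%) higher in C4-2B, near the shares of all genes. The kinase gene MAP3K7 led in VCaP, with 6.77 and 6.72 in C4-2B and 8.41 and 8.54 in VCaP (1.73, SE 0.15). CDK6 led in C4-2B (-2.16). Without either C4-2B array 4 were higher in VCaP, and 2 and 1 higher in C4-2B; without the VCaP control and DNAPK siRNA arrays 3 were higher in C4-2B. The long noncoding RNA DRAIC was higher in VCaP (4.39 and 4.53 in C4-2B, 6.12 and 6.65 in VCaP; 1.93). PCA3 and PCGEM1, long noncoding RNAs of prostate, read at most 3.25 on the 4 arrays and lay below the filter.

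Markers of other cell types were low in both lines. Of 20 immune cell markers, 19 had values, with medians of 2.58 and 2.41 on the C4-2B arrays and 2.82 and 2.53 on the VCaP arrays and a highest signal of 5.04 (CD68). For fibroblast and endothelial markers the medians were 2.32 and 2.69 in C4-2B and 2.85 and 2.66 in VCaP, and no member exceeded 4.86.

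Some genes were near the floor in one line and clearly expressed in the other 3. With thresholds chosen after the values were seen, 18 genes (0.107%) read under 4 on both C4-2B arrays and over 6 on the 6 others, and 10 (0.0595%) did so for VCaP. Those low in C4-2B included SPTBN1 (2.85 and 2.93 in C4-2B, 9.40 to 9.94 elsewhere), PM20D2, the transcription factor gene TFCP2 (1.82 and 2.18 in C4-2B, 8.06 and 7.97 in VCaP), the glycosyltransferase gene POGLUT3 (3.34 and 3.14 in C4-2B, 8.08 and 8.31 in VCaP), GNE, which starts sialic acid synthesis (2.16 and 2.08 in C4-2B, 6.92 and 6.89 in VCaP), the gluconeogenic gene FBP1 (2.33 and 2.38 in C4-2B, 7.10 and 6.48 in VCaP) and annexin ANXA1 (2.24 and 2.62 in C4-2B, 6.31 and 6.01 in VCaP). Those low in VCaP included TCEAL9 (1.58 and 2.15 in VCaP, 7.36 and 7.63 in C4-2B), MSN (3.50 and 2.34 in VCaP, 8.22 and 8.42 in C4-2B and 10.33 to 10.65 in DU145 and PC3), IFITM2, MICA, the lysosomal protease gene CTSC (2.67 and 2.16 in VCaP, 6.45 and 6.55 in C4-2B) and the sulfhydryl oxidase gene QSOX1 (3.27 and 3.39 in VCaP, 6.64 and 6.46 in C4-2B). The agreement between the arrays of the low line is part of how these genes were chosen.

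**Figure D4:**
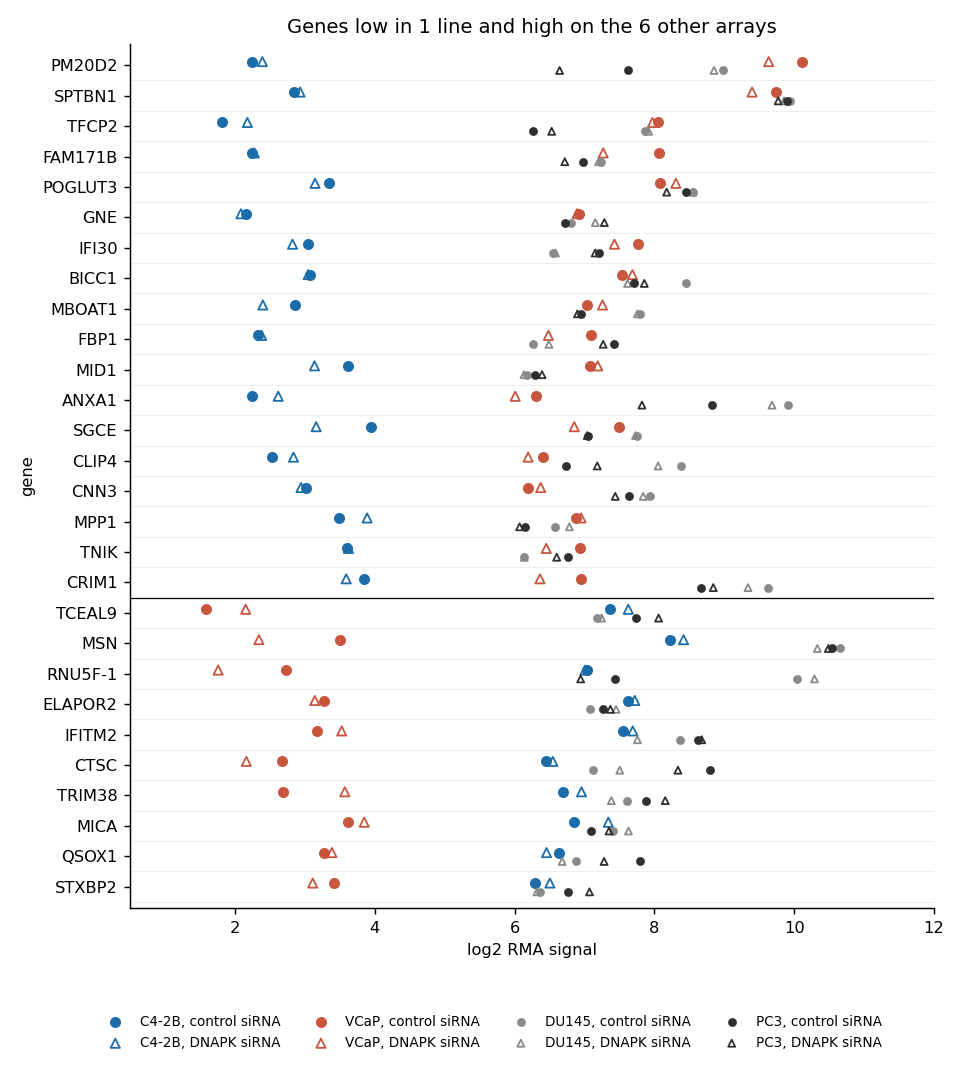
Log2 RMA signal on all 8 arrays of 18 genes under 4 in C4-2B (upper block) and 10 genes under 4 in VCaP (lower block) and over 6 on the 6 other arrays. Filled circles are control siRNA and open triangles DNAPK siRNA; the gap between the low line and the other arrays follows from the choice of genes.

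The differences were not spread evenly over the genome. On chromosome 16, 302 of 744 genes (40.6%) were called higher in C4-2B and 35 (4.70%) higher in VCaP, with a median of -0.45. Chromosome 21 leaned to VCaP, as given above, and chromosomes 4 (27.8%) and 2 (23.2%) had the next highest shares higher in VCaP. Genes were also taken in 817 runs of 20 neighbours, whose medians ran from -0.50 to 0.44 between the 5th and the 95th percentile. On chromosome 16 the runs from LINC00304 to CENPBD1P (median -0.99) and from ZFPM1 to ACSF3 (-0.94) had 14 and 13 of 20 genes higher in C4-2B and 0 higher in VCaP. They included the zinc finger gene ZNF778 (-2.32), MVD of sterol synthesis (-1.95) and the purine salvage gene APRT (-1.72). The median was lowest from NOL7 to DEK on chromosome 6 (-1.45), where 14 genes were higher in C4-2B, such as the histone demethylase gene KDM1B (7.79 and 8.0 in C4-2B, 5.40 and 5.80 in VCaP; -2.30), and GMPR alone higher in VCaP (1.83). The median was highest from C6orf163 to MANEA on the same chromosome (1.39), where 17 of 20 were higher in VCaP and 0 higher in C4-2B, with PM20D2 and MAP3K7 among them. With the runs started 10 genes later, stretches of chromosomes 6 and 16 again had the lowest medians, and one from SNAP91 to GABRR2 on chromosome 6 the highest (1.30).

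**Figure D5:**
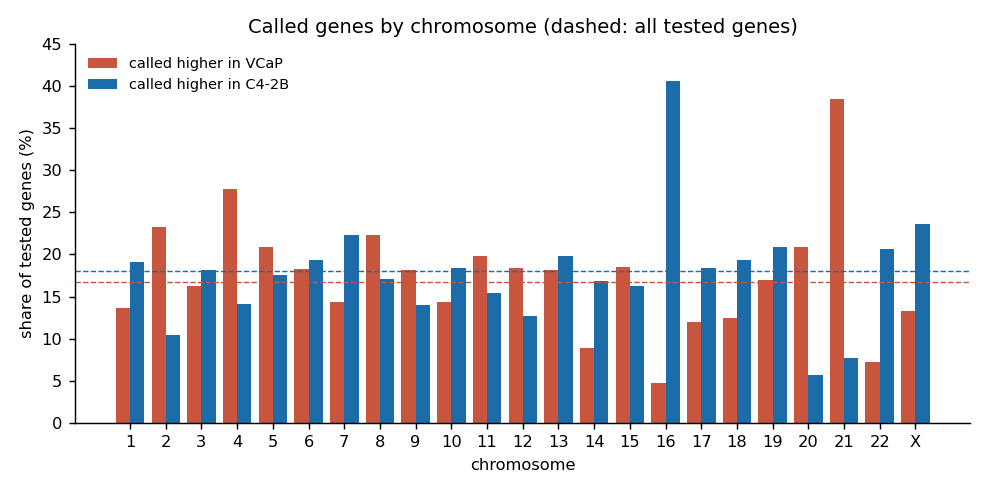
Share of tested genes (vertical, %) on each chromosome called higher in VCaP (red) and higher in C4-2B (blue); dashed lines mark the shares of all tested genes. Chromosome 16 reaches 40.6% higher in C4-2B, and chromosome 21 reaches 38.5% higher in VCaP.

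Zinc finger genes of chromosome 19 and clustered protocadherins were higher in VCaP in blocks. Of 229 genes with a ZNF name on chromosome 19, most of which encode DNA-binding repressors in tandem clusters, 105 (45.9%) were called higher in VCaP and 11 (4.80%) higher in C4-2B, with a median of 0.61. Of 245 ZNF genes elsewhere, 54 (22.0%) and 30 (12.2%) were. The run from ZNF304 to ZNF552 (median 1.18) had 18 of 20 genes called higher in VCaP, including ZIK1 (3.52 and 3.19 in C4-2B, 7.08 and 6.43 in VCaP; 3.40). The run from FPR3 to ZNF808 (median 1.16) had 13, among them ZNF577 (5.50 and 5.51 in C4-2B, 9.15 and 9.43 in VCaP; 3.79). Yet the chromosome as a whole did not lean to VCaP: 258 of its 1232 genes were higher in C4-2B and 210 higher in VCaP, and the run from S1PR2 to QTRT1 had a median of -0.93. On chromosome 5, 11 of 12 beta protocadherin genes and pseudogenes in the run from NDUFA2 to PCDHB18P, which encode adhesion proteins of neurons, were higher in VCaP, such as PCDHB5 (2.53 and 2.32 in C4-2B, 6.59 and 6.65 in VCaP; 4.2). Members of these families are alike in sequence, so their probes may share signal.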

How the data were processed

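Total RNA from 8 cultures of established lines was hybridised to Affymetrix arrays, 1 per line and siRNA. The authors deposited log2 expression values made with oligo by RMA, per the submitters' processing notes; versions and the genome build of the array design are not given in the sources used here. Scanner files and detection calls were not used here. Of 53617 probe sets, 23871 carried 1 gene symbol, 1842 several and 27904 none in the platform annotation. For 22572 probe sets with 1 symbol, the Entrez identifier was found in RefSeq (GRCh38.p14) and the RefSeq symbol was used. RefSeq also gave gene order, promoters and microRNAs. The brightest probe set stood for each of 22395 genes, and 16796 genes with a mean above the 25th percentile (2.51) were tested.

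The difference VCaP minus C4-2B was fitted with limma 3.58.1 in R 4.3.3 on 8 arrays, with line and siRNA as terms, so the siRNA acted as the pairing block; 3 residual degrees of freedom were moderated to 7.55 in all. Calls needed a Benjamini-Hochberg adjusted p under 0.05 and the same sign in both pairs. The p-values measure the spread of the siRNA response between these arrays, not between independent cultures, and the number of arrays limits the precision. For 2 arrays against 2 an exact permutation test cannot go below p = 0.333. The code was tested on simulated data.

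Genes were named by rule: the 12 largest called differences in each direction, up to 3 highest and 3 lowest called members of each list, a fixed set and 5 genes with opposite pairs. Genes of chromosomal runs, genes near the floor, microRNAs and a few list members fall outside this rule and were chosen with their values in view. The members and lists were chosen with earlier results of these data known. Sequence identity was computed with Biopython 1.88. Some of the fixed genes and lists are not reported here.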

Additional observations from a re-analysis of the deposited data

Results flagged for a closer look

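In 7 genes the pairs differed by over 2-fold in opposite directions, so no standing difference between the lines can be given for them. The 5 with the largest opposite differences are described here, and the others were BEST1 and CDC14A. The difference between pairs was not tested, since each pair holds 1 array per line. H2AC14, a histone gene, was higher in VCaP by 1.35 on control arrays and at -1.33 after DNAPK siRNA, a change of -2.67. The microRNA gene MIR596 went from -1.91 to 1.32, a change of 3.23. PLOD2, a collagen lysyl hydroxylase gene of the hypoxia response, went from -1.50 to 1.21, a change of 2.71, and read 6.81 and 9.47 on the VCaP arrays against 8.31 and 8.26 on the C4-2B arrays. TCEAL3 went from 1.10 to -1.41, a change of -2.51, and the ribosomal protein pseudogene RPL13P5 from -1.09 to 1.05, a change of 2.14. In H2AC14, PLOD2 and TCEAL3 the VCaP arrays were the ones farthest apart.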

How the results depend on the processing

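The counts of called genes stayed within 1.5 times of their values with the 4 arrays alone, without the siRNA as a replicate block (2299 higher in VCaP and 2450 higher in C4-2B), with median centring (3166 and 2736), cyclic loess (3038 and 2828), other filters, other choices of probe set, and trended or robust variance. They moved further without single arrays: called higher in VCaP ranged from 1529 to 2566 and higher in C4-2B from 1527 to 2973, and those past 2-fold from 1559 to 1685 and from 1579 to 1820, where 1 pair is left to meet the fold. With control arrays alone, an alternative added after seeing the data, 1809 were called higher in VCaP and 1695 higher in C4-2B, 1685 and 1579 past 2-fold, and 3222 of all 3504 calls were shared with the 8-array fit. Of the 5834 calls none turned its sign under any alternative, except 2 with the mean of probe sets and 2 with the most variable probe set. Higher in VCaP were 45.8% to 53.6% of calls. PLOD2 was at 1.25 without VCaP replicate 1 and at -1.54 without VCaP replicate 2, and TCEAL3 was at -1.51 and 1.19, and at 1.10 with control arrays alone; in both, the pairs have opposite signs. Of 180 called genes named by rule, 127 kept their call without each of the 4 arrays in turn. Differences are relative to the bulk of transcripts, and a value near 2 or 3 on this scale lies close to the background of the array, where folds are understated. Each line and siRNA had 1 culture, and line and medium cannot be told apart.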

Other observations

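MicroRNA genes were not among the lists above. The array reads mostly the precursor or host transcript, not the mature microRNA. Of 430 microRNA genes tested, 52 were called higher in VCaP (12.1%) and 40 higher in C4-2B (9.30%), below the shares of all genes. The mature sequences of the genes described next are shown because their seeds (bases 2 to 8, in capitals) set the targets they share with other microRNAs; they come from RefSeq on GRCh38.p14.
hsa-miR-568: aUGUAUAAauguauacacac
hsa-miR-23c: aUCACAUUgccagugauuaccc
hsa-miR-4324: cCCUGAGAcccuaaccuuaa
hsa-miR-3189-3p: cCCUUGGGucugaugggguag
They lie at chr3:114316535-114316554 and chrX:20017101-20017122 (minus strand), chr19:49308807-49308826 (minus strand) and chr19:18386607-18386627 (plus strand). The seed of hsa-miR-23c is that of hsa-miR-23a-3p and hsa-miR-23b-3p.

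MIR568, inside ZBTB20, read 2.03 and 1.95 in C4-2B and 6.23 and 5.42 in VCaP (3.84, SE 0.33; limma adjusted p = 1.62e-04), and its host gene was higher in VCaP by 2.05. MIR23C, inside MAP7D2, read 2.15 and 1.84 in C4-2B and 4.84 and 4.79 in VCaP (2.81, SE 0.17), close to the 2.86 of its host. MIR23C passed the filter only through its VCaP arrays. MIR3189, inside GDF15, read 5.17 and 5.10 in C4-2B and 3.20 and 1.90 in VCaP (-2.59, SE 0.48), beside -3.75 for the host. MIR4324, inside SLC6A16, read 5.91 and 6.08 in C4-2B and 3.26 and 3.04 in VCaP (-2.85, SE 0.21; limma adjusted p = 8.25e-05), while its host was not called (-0.45). DU145 and PC3 read 5.55 to 6.14 for MIR4324, so VCaP was the line apart. The difference between a microRNA gene and its host was not tested.

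Probe sets with no gene symbol or with several were fitted apart. Of 15154 above the filter, 919 were called higher in VCaP and 983 higher in C4-2B. Among the 16796 genes tested, the calls were 2806 (16.7%) and 3028 (18.0%), a larger share in each direction.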
